A study of Mus musculus with 6 samples.

Results

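The genes described here are the growth factor receptors and FGF ligands through which pluripotent ESCs (embryonic stem cells) and neural NPCs (progenitor cells) of the mouse read FGF and EGF signals. They were chosen by identifier and not by a cutoff on their values, though earlier results of these data were known. They are the ligands Fgf4 and Fgf2, the FGF receptors Fgfr1 to Fgfr4, and the EGF receptor family Egfr, Erbb2, Erbb3 and Erbb4. All 10 have a row among the 17144 genes of the arrays. RNA came from V6.5, a blastocyst-derived ESC line of 129SvJae/C57B6 F1 background, grown with serum and LIF, and from NPCs made from that line by differentiation in culture and kept in N3 medium with bFGF (the protein of Fgf2) and EGF. Both cell types were wild type, with 3 biological replicates each and 1 Affymetrix array per replicate, and all of them trace back to a single ESC line. Signal is given as log2 values from RMA (robust multi-array average), 1 per Ensembl gene, so that a step of 1 is a doubling of signal and splice forms of a receptor are not separated.

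FGFs are secreted factors that bind receptor tyrosine kinases together with heparan sulfate chains, and the occupied receptors pair, phosphorylate adaptor proteins and switch on the RAS-ERK cascade. EGF and its relatives act in the same way through the EGF receptor family, whose members work as pairs. In ESCs, FGF4 made by the cells themselves drives ERK signalling and prepares them to leave pluripotency. Neural progenitors in culture depend instead on added FGF2 and EGF, which keep them dividing.

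The array medians lay between 5.59 and 5.76 on the log2 scale. Across genes, which are not independent replicates, r was 0.996 to 0.998 between ESC arrays and 0.997 between NPC replicates 1 and 2. NPC replicate 3 stood apart, with r of 0.978 to 0.979 to the other NPC arrays and 686 genes more than 1 away from the mean of those arrays. Differences of some of the genes are therefore also given without it. Of the marker lists for the cell types, only the NPC list had more than 1 gene that could be named. Most names came from a list sorted by the rise in NPCs, so nothing follows from the higher NPC values of the named markers. Pou5f1, the pluripotency factor OCT4, read 12.42 to 12.46 in ESCs and 3.61 to 3.83 in NPCs. The progenitor marker Nes (NESTIN) read 5.47 to 5.88 in ESCs and 7.57 to 7.84 in NPCs, and Fabp7, a radial glia gene, read 3.72 to 3.85 and 12.76 to 13.53. Pax6 and Sox1 were not among the genes that could be named here and were not analysed, whether or not the arrays measure them.

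Of the 10 genes, Egfr and Fgfr1 rose in NPCs, Fgf4 and Erbb3 fell, and the other 6 were not called. The largest changes among the 10 were a 50.1-fold lower Fgf4 signal and a 20.4-fold higher Egfr signal in NPCs, both as folds of measured array signal. Calls needed both an adjusted p under 0.05 from limma (6 arrays, Benjamini-Hochberg over 17144 genes) and cell type means more than 1.5-fold apart. Called genes made up 4 of the 10 and 34.1% of all genes on the arrays, so receptors and FGF ligands were called at a rate near the background. Among all genes 15.4% were called higher in NPCs and 18.7% lower (2638 and 3213 genes), a split that median centring of the arrays turned to 3302 and 2642. The median size of the difference, whatever its direction, was 0.46 on the log2 scale over the 10 genes and 0.33 over all genes. In 7 of the 10 genes the ESC and NPC arrays did not overlap, as in 58.7% of all genes.

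**Figure D1:**
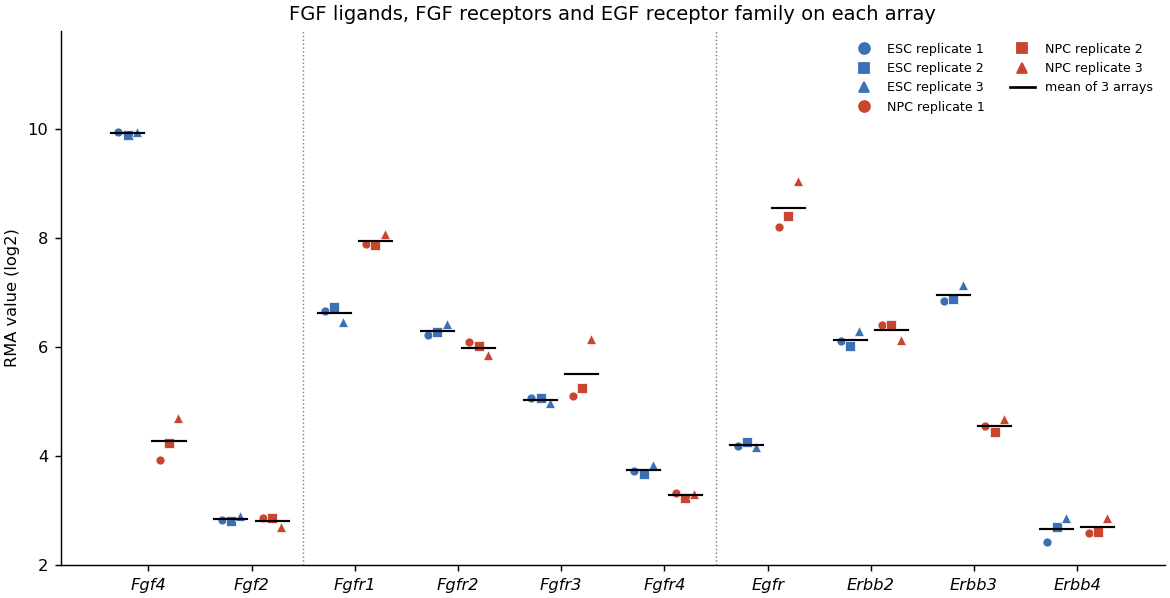
RMA value (log2, y axis) of each of the 10 genes on every array, with ESC arrays in blue, NPC arrays in red, the replicate number as the symbol and the mean of 3 arrays as a black bar. Fgf4 and Erbb3 drop from blue to red, Egfr and Fgfr1 climb, and Fgf2 and Erbb4 sit below 3 on all 6 arrays.

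Fgf4 (ENSMUSG00000050917_at), the FGF that ESCs make for themselves and a textbook target of OCT4 and SOX2, read 9.94, 9.90 and 9.95 on the ESC arrays and 3.92, 4.24 and 4.69 on the NPC arrays. All ESC arrays were thus more than 5 above all NPC arrays on the log2 scale, and the ESC arrays were close together while the NPC arrays were spread, with replicate 3 the highest. Its mean was 9.93 ± 0.03 (SD, n = 3 arrays) in ESCs and 4.28 ± 0.39 in NPCs. These differ by -5.65 (standard error 0.18), with a limma adjusted p of 6.83e-07. Only 0.437% of all genes moved as far or farther in either direction, and it was the 56th largest fall. In signal rank, Fgf4 stood at percentiles 94.4 to 94.9 of all genes on the ESC arrays and at percentiles 25.0 to 38.0 on the NPC arrays. Detection calls were not used, and a rank compares probe sets of different brightness, so the NPC values do not settle whether any transcript was left. In bulk RNA, fewer cells with a transcript and less of it per cell cannot be told apart.

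Fgf2 (ENSMUSG00000037225_at) encodes bFGF, the factor added to the NPC medium. It read 2.83, 2.81 and 2.90 in ESCs and 2.87, 2.87 and 2.69 in NPCs. The values overlapped, and over the 6 arrays the gene ranked at percentiles 1.25 to 3.33 of signal. Its difference was -0.04 (95% interval -0.24 to 0.17, adjusted p = 0.779, limma), and its sign turned without NPC replicate 3 (0.02) and after median centring of the arrays (0.12). A gene this close to the lower end of the scale in both cell types gives little room to see a change.

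Among the FGF receptors, Fgfr1 alone was called. FGFR1 is the main FGF receptor of ESCs and of early neural progenitors. Fgfr1 (ENSMUSG00000031565_at) read 6.66, 6.74 and 6.46 in ESCs and 7.89, 7.88 and 8.08 in NPCs, so that its lowest NPC array was above its highest ESC array by more than 1. The mean rose from 6.62 ± 0.14 to 7.95 ± 0.11 (SD, n = 3 arrays each). That is 1.33 on the log2 scale, or 2.52-fold, with a standard error of 0.11 and a limma adjusted p of 4.53e-05. Across the NPC replicates this was an even change, and without NPC replicate 3 the difference was 1.27.

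Fgfr2 (ENSMUSG00000030849_at), whose product serves epithelia and also radial glia, read 6.22, 6.27 and 6.42 in ESCs and 6.10, 6.03 and 5.85 in NPCs. All NPC arrays were below all ESC arrays, by a narrow margin. Its difference of -0.31 (standard error 0.10, 95% interval -0.55 to -0.07) is 1.24-fold and short of the 1.5-fold threshold. The adjusted p of 0.0385 from limma lay between 0.0267 and 0.229 over the alternative ways of processing.

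Fgfr4 (ENSMUSG00000005320_at), a receptor best known from liver, muscle and early endoderm, read 3.72, 3.66 and 3.83 in ESCs and 3.33, 3.24 and 3.30 in NPCs. Again the arrays did not overlap, with the NPC values lower and closely grouped. The gap of -0.45 (standard error 0.08, limma adjusted p = 0.00289) is 1.37-fold, and the gene was not called because of its size and not its spread. The adjusted p stayed between 0.00123 and 0.0179 over the alternatives. On the arrays the gene ranked at percentiles 19.3 to 20.4 of signal in ESCs and 9.99 to 12.1 in NPCs.

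Fgfr3 (ENSMUSG00000054252_at), a receptor of ventricular zone progenitors and astrocytes, was the least even of the 10. It read 5.06, 5.06 and 4.97 in ESCs and 5.10, 5.25 and 6.15 in NPCs. NPC replicates 1 and 2 were just above the ESC arrays, whereas replicate 3 was 0.97 above the mean of the other NPC arrays, a gap that 4.26% of all genes reached or passed. The difference was 0.47 (95% interval -0.15 to 1.08, adjusted p = 0.187, limma) with all arrays and 0.14 (adjusted p = 0.207) without NPC replicate 3. Fgfr3 was called neither with that array nor without it.

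**Figure D2:**
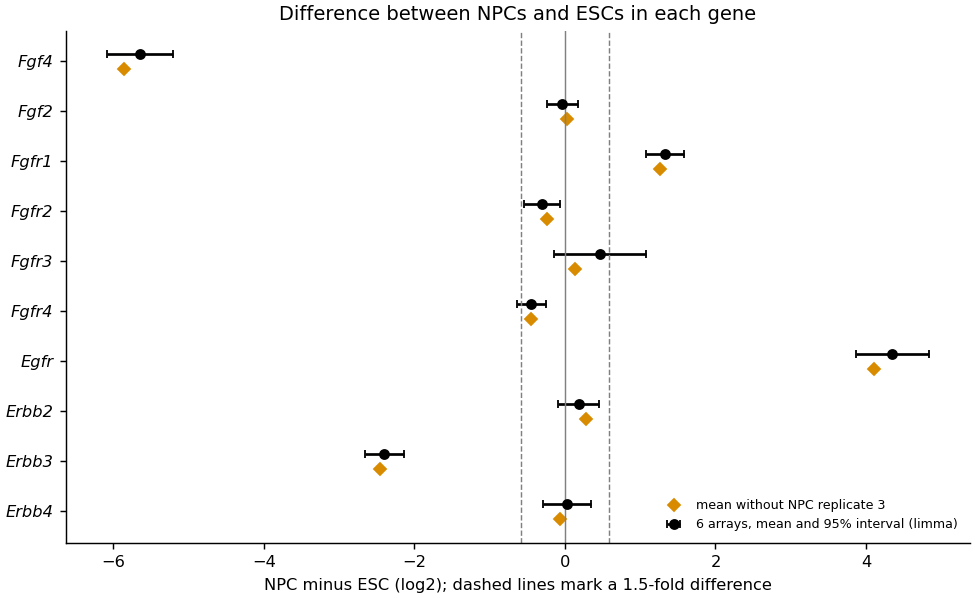
Difference between NPCs and ESCs on the log2 scale (x axis) for each gene (y axis), as the mean with its 95% interval from limma over 6 arrays (black) and as the mean without NPC replicate 3 (orange diamonds), with dashed lines at 1.5-fold. The intervals of Fgf4, Fgfr1, Egfr and Erbb3 lie wholly beyond the dashed lines, and Fgfr3 has the widest interval, from -0.15 to 1.08.

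In the EGF receptor family, Egfr rose and Erbb3 fell, while Erbb2 and Erbb4 were not called. Egfr (ENSMUSG00000020122_at) encodes the receptor for the EGF in the NPC medium and marks progenitors that respond to EGF. It read 4.19, 4.26 and 4.16 in ESCs and 8.21, 8.42 and 9.04 in NPCs. The ESC arrays were within 0.2 of each other, and all NPC arrays were far above them, with replicate 3 the highest. The mean rose from 4.21 ± 0.05 to 8.56 ± 0.43 (SD, n = 3 arrays each). The rise of 4.35 had a standard error of 0.20 and a limma adjusted p of 3.58e-06. It was the 65th largest rise on the arrays, and in signal rank Egfr moved from percentiles 26.6 to 30.2 in ESCs to percentiles 82.0 to 89.7 in NPCs. As for Fgf4, detection calls were not used, so the ESC values do not settle whether any transcript was present there. Without NPC replicate 3 the difference was 4.11.

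Erbb3 (ENSMUSG00000018166_at) encodes a receptor for neuregulins with little kinase activity of its own, which signals through its partners and is known from neural crest, Schwann cells and epithelia. It read 6.86, 6.88 and 7.13 in ESCs and 4.56, 4.44 and 4.67 in NPCs. The groups were separated by more than 2 on the log2 scale and each was compact. The mean fell from 6.96 ± 0.15 to 4.56 ± 0.12 (SD, n = 3 arrays each), 5.28-fold. On the log2 scale this is -2.40, with a standard error of 0.11 and a limma adjusted p of 3.20e-06. The fall was of the same size without NPC replicate 3, at -2.46.

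Erbb2 (ENSMUSG00000062312_at) encodes the family member that binds no ligand and serves as the preferred partner of the others. It read 6.11, 6.02 and 6.29 in ESCs and 6.41, 6.41 and 6.14 in NPCs. The groups overlapped through NPC replicate 3, which was below the highest ESC array. The difference was 0.18 (95% interval -0.09 to 0.45, adjusted p = 0.246, limma), so a rise of 1.5-fold lies outside the interval of this fit. After median centring of the arrays it was 0.34 (standard error 0.11, adjusted p = 0.0424, limma), and the interval for that fit is not given here. The statement on a rise of 1.5-fold therefore covers only the fit without centring. Without NPC replicate 3 the difference was 0.27 (adjusted p = 0.0433, limma), still short of 1.5-fold.

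Erbb4 (ENSMUSG00000062209_at), a neuregulin receptor of neurons and heart muscle, read 2.43, 2.70 and 2.86 in ESCs and 2.59, 2.61 and 2.87 in NPCs. These values overlapped throughout. Its difference of 0.03 (95% interval -0.29 to 0.35, adjusted p = 0.889, limma) became -0.06 without NPC replicate 3 and -0.09 without ESC replicate 1. The gene stayed at or below percentile 3.38 of signal on every array, where a change would be hard to see.

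**Figure D3:**
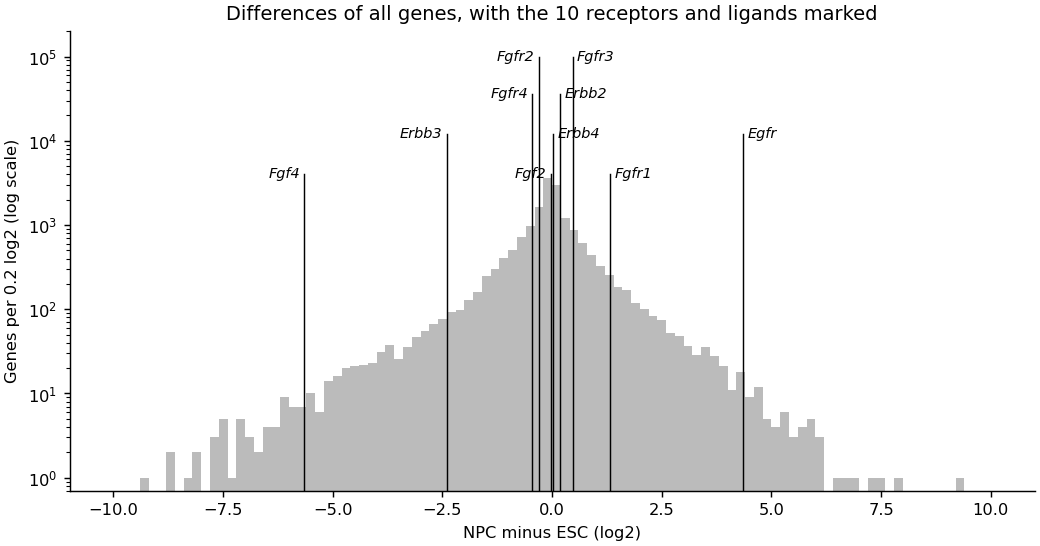
Number of genes (y axis, log scale) by their difference between NPCs and ESCs on the log2 scale (x axis) for all 17144 genes in grey, with the 10 receptors and ligands marked by black lines whose height has no meaning. Fgf4 at -5.65 and Egfr at 4.35 lie in the tails, and Fgf2, Fgfr2, Fgfr3, Fgfr4, Erbb2 and Erbb4 lie in the central mass.

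Because the receptors of a family bind related ligands or pair with each other, their changes were also compared within an array. The log2 ratio of a pair of genes was taken on each array, which cancels any scaling of the whole array, and only its change between cell types was read. Across the 13 pairs within families, exact two-sided permutation tests of 3 arrays against 3 cannot go below p = 0.1, and the smallest value after adjustment over the 13 pairs was 0.118. The ratio of Fgfr1 to Fgfr2 was higher in NPCs by 1.64 on the log2 scale, and that of Fgfr1 to Fgfr4 by 1.78, each with p = 0.1 in the exact test. The ratio of Fgfr1 to Fgfr3 was higher by 0.87, least so in NPC replicate 3, where it was 1.94 against 2.79 and 2.63, and by 1.13 without that array. The ratio of Egfr to Erbb3 turned most of all, from between -2.97 and -2.62 in ESCs to between 3.65 and 4.37 in NPCs, a change of 6.75 in the means with p = 0.1 in the exact test. Egfr gained 4.17 over Erbb2 in the same way. The ratio of Fgfr2 to Fgfr4 overlapped between the cell types, with a change of 0.14 and an exact p of 0.3. These ratios show unequal change and do not compare the abundance of different receptors, since probe sets differ in brightness.

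NPC replicate 3 had the highest NPC value in 6 of the 10 genes and the lowest in 3, against 37.9% and 41.5% of all genes. The gaps were widest in Fgfr3, Egfr and Fgf4, at 0.97, 0.73 and 0.61 above the mean of the other NPC arrays. Of the progenitor markers Nes, Fabp7, Olig2, Slc1a3 and Ptprz1, all but Nes were also highest in that array. Slc1a3, a glutamate transporter of radial glia and astrocytes, read 9.80 there against 8.66 and 8.72. The astrocyte gene S100b read 7.02 there against 6.32 and 6.13, and had a mean of 3.98 ± 0.03 (SD, n = 3 arrays) in ESCs, a mean difference of 2.51 between NPCs and ESCs on the log2 scale. The neuron gene Dcx read 3.76 there against 4.86 and 5.06, and 3.33 to 3.68 in ESCs, a mean difference of 1.08. The oligodendrocyte gene Cnp was higher in NPCs by 0.88. S100b, Dcx and Cnp are each the only named gene of their list, so the lists could not be summed. Because most names came from a list sorted by the rise in NPCs, nothing follows from the rise of these markers. In NPC replicate 3 these markers did not shift alike, with Slc1a3 and S100b higher than in the other NPC arrays and Dcx lower. The part of the markers in the values of Egfr, Fgfr1, Fgfr3 and Fgf4 was not tested.

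The rest of the pathway could be seen only in part, because most rows of the arrays carry no gene name. Of 81 further ligands, co-receptors, modulators and ERK cascade genes, 16 could be named. The share named ran from 9.09% of the EGF family ligands to 36.8% of the FGF co-receptors and modulators. Names came from a list sorted by the rise in NPCs, so that these genes were bound to be higher there. Their values are given as a description with no test of them as a set, and nothing follows from the number that were higher.

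Other FGF genes that could be named were Fgf1, Fgf12 and Fgf13. Fgf1, a ligand that can bind all FGF receptors, had a mean of 5.15 ± 0.08 in ESCs and 7.70 ± 0.27 in NPCs (SD, n = 3 arrays each) and was higher in NPCs by 2.56 (standard error 0.14). Fgf13 and Fgf12 encode FGF homologous factors, which stay inside the cell and bind sodium channels. Fgf13 went from 4.22 ± 0.06 to 5.73 ± 0.09 and Fgf12 from 3.32 ± 0.03 to 4.24 ± 0.04 (SD, n = 3 arrays each). The NPC arrays were above the ESC arrays for all of these genes.

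Fgfrl1, an FGF receptor relative that lacks the kinase domain, had a mean of 6.91 ± 0.13 in ESCs and 9.46 ± 0.41 in NPCs (SD, n = 3 arrays each). Among the heparan sulfate carriers, which present FGFs to their receptors, Sdc3 was higher in NPCs by 2.21 (standard error 0.11), Gpc6 by 1.51 (standard error 0.19), Gpc2 by 1.42 (standard error 0.30) and Gpc1 by 1.25 (standard error 0.24). NPC replicate 3 was the lowest NPC array in Gpc1 and Gpc2, at 7.52 and 5.24, and the highest in Gpc6, at 6.29. Without it the differences were 1.54 for Gpc1, 1.76 for Gpc2 and 1.29 for Gpc6. Flrt2, a membrane protein of the FLRT family, was higher by 1.90 (standard error 0.28), and by 1.56 without NPC replicate 3. Fgfbp3, a secreted FGF carrier, was uneven among NPCs, at 6.65, 6.49 and 5.10 with replicate 3 the lowest, and its highest ESC array was at 4.79. Its difference was 1.64 with replicate 3 and 2.13 without it.

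Lrig1, a membrane protein that restrains EGFR and other ERBB receptors, read 5.73, 5.74 and 5.67 in ESCs and 8.04, 7.82 and 8.82 in NPCs. Adam10, a protease that releases membrane-bound EGF family ligands, was higher in NPCs by 2.09 (standard error 0.16). The EGFR ligand Areg (amphiregulin) read 3.43, 3.45 and 3.43 in ESCs and 2.88, 3.23 and 7.01 in NPCs. It was thus high in NPC replicate 3 alone and below the ESC arrays in the other NPC arrays. Areg was not called (limma adjusted p = 0.499). Its difference of 0.94 became -0.38 without NPC replicate 3. The values left were then 2.88 to 3.45, low on the scale, so no fall is read from them. Of the adaptors and the cascade, Sos2, which activates RAS, was higher in NPCs by 2.07 (standard error 0.12), Gab2, a docking protein, by 1.94 (standard error 0.22), and Shc3, a neural SHC adaptor, by 1.29 (standard error 0.15).

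**Figure D4:**
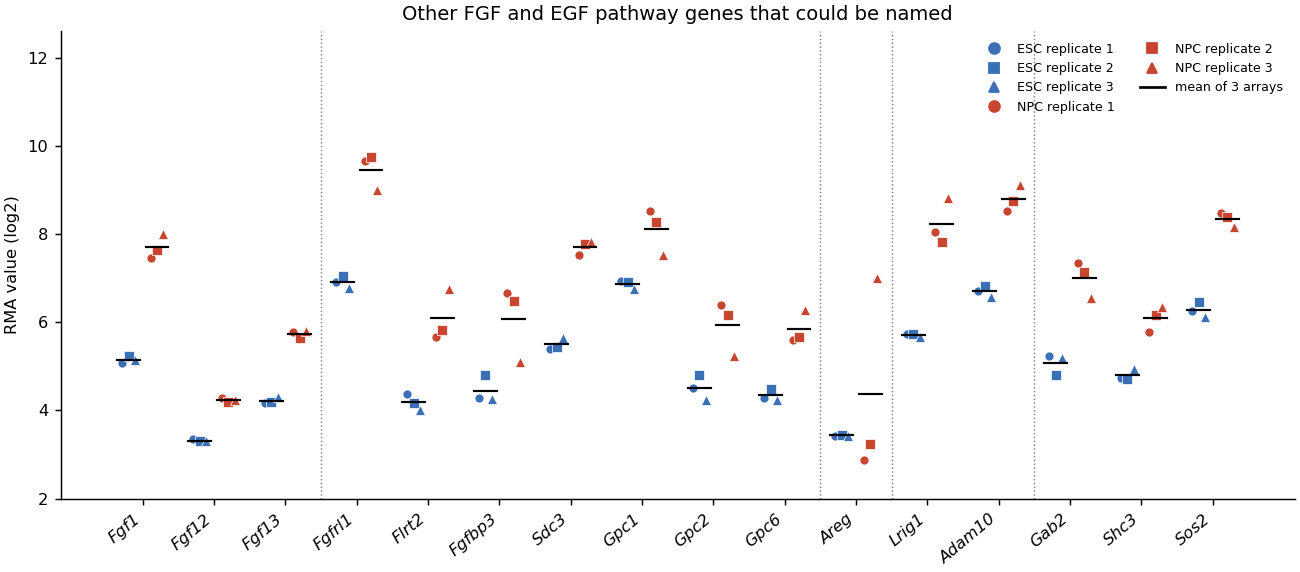
RMA value (log2, y axis) of the 16 other FGF and EGF pathway genes that could be named, with symbols and colours for arrays as in the plot of the 10 genes and dotted lines between ligands, co-receptors, EGF ligands, EGF receptor modulators and adaptors. Areg is the exception to the higher NPC values, at 7.01 in NPC replicate 3 and at 3.23 or below in the other NPC arrays.

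Among the 2004 genes with a name in the tables of the study, likeness to a called gene was measured as the root mean square difference of the 6 values after each gene was centred on its own mean. Closest to Fgfr1 were Carkd at 0.05 and Nptn, a cell adhesion molecule, at 0.05 on the log2 scale. Closest to Egfr were Fyn, a SRC family kinase, at 0.11 and Serpine2, a protease inhibitor, at 0.13. Both of these were, like Egfr, highest in NPC replicate 3, by 0.54 and 0.70 over the mean of the other NPC arrays. That array is among the 6 values by which they were picked, so this likeness is no separate result. For the genes that fell, almost no falling genes have a name, and the nearest were Pou5f1 to Fgf4 at 1.57 and Rfx2 to Erbb3 at 0.22.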

How the data were processed

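RNA from 3 ESC and 3 NPC cultures was hybridized to Affymetrix mouse expression arrays. The authors deposited log2 RMA values, which are background corrected, quantile normalized over the arrays and summarized per Ensembl gene with the BrainCDF probe annotation. Its version is not given in the sources used here. Of 17208 rows, 64 control probe sets were left out and 17144 genes kept, with no further normalization or filter. Groups and replicate numbers came from the sample labels. The replicates are biological per the labels, and precision is limited by their small number. A signal percentile counts, for each array, how many genes read no higher.

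The test for every gene was limma's (version 3.58.1 under R 4.3.3), from lmFit and eBayes on NPC minus ESC with no covariates, with Benjamini-Hochberg adjustment. The threshold, an adjusted p under 0.05 and over 1.5-fold, followed the study, whose moderated Welch test was rebuilt as an alternative. On simulated data for NPCs against ESCs over 17144 genes, limma called 79 of 100 genes changed 2-fold, 97 of 100 changed 4-fold and 8 unchanged genes. Far fewer genes were changed there than the 34.1% called in the real data, so these rates need not carry over. Ratios were tested by exact permutation in scipy 1.17.1. Figures were drawn with matplotlib 3.10.9 in Python 3.11.15, from tables made with pandas 2.3.3.

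The 10 identifiers were given with their symbols, and 2 symbols (Egfr and Fgfr1) were also borne out by the study's tables. Other genes were named where all 6 values equalled a printed row within 0.0001, which named 2004 genes. The study's own fold changes and test statistics were not used. The named genes are the 10, the 2 nearest profiles of each called gene, and listed pathway and marker genes with a name. No gene of the fibroblast list or of the mesoderm and endoderm list was named, 1 of 8 of the oligodendrocyte list (Cnp, higher in NPCs by 0.88 on the log2 scale) and 1 of 10 of the ESC list. From the progenitor list 1 further gene is not reported here. The genes and lists were chosen with earlier results of these data known.

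The alternatives were the moderated Welch test, a mean-variance trend, a replicate block, median centring, quantile normalization, a filter at the median, a threshold of 2-fold, and each array left out in turn. Differences of the 16 pathway genes without NPC replicate 3 were added after the data were seen.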

Additional observations from a re-analysis of the deposited data

How the results depend on the processing

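Fgf4, Fgfr1, Egfr and Erbb3 were called, in the same direction, under all 13 alternatives, and the other 6 genes under none of those that kept them (the filter at the median kept 6 of the 10 genes). Leaving out 1 array at a time, the differences on the log2 scale lay between -5.85 and -5.47 for Fgf4, 1.25 and 1.39 for Fgfr1, 4.11 and 4.52 for Egfr, -2.46 and -2.31 for Erbb3, -0.36 and -0.24 for Fgfr2, 0.14 and 0.66 for Fgfr3, -0.49 and -0.41 for Fgfr4, and 0.12 and 0.27 for Erbb2. For the 10 genes the sign turned in 4 of 126 values, all of them in the genes at the lower end of the scale. Fgf2 became 0.12 with median centring. Leaving out 1 array at a time, Fgf2 lay between -0.066 and 0.024, and Erbb4 between -0.088 and 0.13. Of the 16 named pathway genes, Areg turned from 0.94 to -0.38 without NPC replicate 3, an alternative chosen after seeing the data. None of the 104 values of the ratios between genes changed sign. Over all genes, a threshold of 2-fold called 3592 in place of 5851, with 1615 higher and 1977 lower, as a stricter threshold must. Median centring called 3302 higher and 2642 lower in NPCs, against 2638 and 3213, and moved the median difference of all genes from -0.04 to 0.12.

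The replicate numbers occur in both cell types, but same-numbered arrays did not deviate together (r = 0.0264, 0.0110 and -0.00645 across genes for numbers 1, 2 and 3). No pairing by number was thus seen, and none was used in the main test. The deviations were taken from means of 3 arrays that include NPC replicate 3, so a pairing could be missed. A replicate block called 5867 genes, and among the 10 it called Fgf4, Fgfr1, Egfr (at 4.35) and Erbb3 and no other. Genes near the lower end of the signal, Fgf2 and Erbb4, allow no statement on absence or change of their transcripts.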
